A study of Mus musculus with 9 samples.

Results

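The genes described here encode 8 receptors through which blood-forming cells sense cytokines: Epor, Csf3r, Csf2ra, Csf2rb, Il3ra, Csf1r, Il6ra and Il6st. They were chosen by name, and each had 1 probe set that carries its symbol alone, so all 8 were measured among the 22180 genes with such a probe set. They were followed in long-term haematopoietic stem cells (LT-HSC) of C57BL/6 mice, sorted by flow cytometry from bone marrow as Lin- cells with Sca-1 and c-kit and without CD34 and CD135. There were 3 genotypes with 3 biological replicates each. The first was MxCre Jak2VF/+ EZH2-/-, with 1 mutant Jak2 allele and loss of Ezh2. The second was MxCre Jak2VF/+, with the mutant allele alone, and the third was WT (control). Mice of all 3 groups had been given 5 doses of 300 µg pI-pC at 4 weeks after birth, and marrow was taken 12 weeks after the injections. MxCre is a Cre recombinase under the interferon-inducible Mx1 promoter, which pI-pC switches on and which is active in tissues besides blood. The labels name MxCre for the mutant groups and do not mention it for WT, so a comparison with WT may also include the transgene. The comparisons ask how the receptor genes read with the mutant Jak2 allele, and with loss of Ezh2 on top of it.

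Most of these receptors belong to the class I cytokine receptor family, which has no kinase of its own and signals through bound Janus kinases and STAT factors. The receptors for erythropoietin and granulocyte colony-stimulating factor work as pairs of 1 chain, bound to Jak2. The receptors for interleukin-3 and granulocyte-macrophage colony-stimulating factor join a specific alpha chain to a shared beta chain, and mice have an additional beta chain, encoded by Csf2rb2, that serves interleukin-3 alone. Interleukin-6 binds its own alpha chain, which then recruits gp130, the signalling chain shared by the interleukin-6 family. The receptor for macrophage colony-stimulating factor is a tyrosine kinase and stands outside this family.

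Of the 8 genes, Csf2rb alone had Jak2VF/+ arrays that did not overlap those of WT or of Jak2VF/+ EZH2-/-. Its signal was higher in Jak2VF/+ than in WT, lower in Jak2VF/+ EZH2-/- than in Jak2VF/+, and overlapped between Jak2VF/+ EZH2-/- and WT. Of all genes, 6.11% did not overlap between Jak2VF/+ and WT, and 11.1% between Jak2VF/+ EZH2-/- and Jak2VF/+. The paralogue of Csf2rb, Csf2rb2, which is not among the 8, had the same order of groups, with larger differences between Jak2VF/+ and each other genotype. Neither passed the test over all genes (limma with Benjamini-Hochberg adjustment, threshold 0.05), and the other 7 receptor genes overlapped between genotypes in each comparison. All signals are log2 values, so a difference of 1 is 2-fold, and levels are compared within a probe set only.

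The promoter stretches shown here are those of Csf2rb2, whose arrays separated between Jak2VF/+ and each other genotype, and of Epor, Csf3r and Csf2ra, whose groups overlapped. They come from RefSeq (GRCm38.p6), 5′ to 3′ on the gene's strand, with positions counted back from -1 at the last base before the annotated start. The windows are Csf2rb2 at chr15:78305722-78305971 (minus strand, -250 to -1), Epor at chr9:21963577-21963656 (minus strand, -80 to -1), Csf3r at chr4:126024539-126024618 (plus strand, -120 to -41) and Csf2ra at chr19:61228419-61228498 (minus strand, -80 to -1). Capitals mark a match, on either strand, to a STAT motif (TTCNNNGAA), a GATA motif (GATAA), an ETS or PU.1 motif (GAGGAA) or a C/EBP motif (TTGCNNAA).
Csf2rb2: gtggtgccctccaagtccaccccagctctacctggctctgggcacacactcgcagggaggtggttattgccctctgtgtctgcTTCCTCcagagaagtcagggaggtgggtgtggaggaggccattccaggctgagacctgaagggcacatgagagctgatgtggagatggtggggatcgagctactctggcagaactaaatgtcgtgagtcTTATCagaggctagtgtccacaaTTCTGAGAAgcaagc
Epor: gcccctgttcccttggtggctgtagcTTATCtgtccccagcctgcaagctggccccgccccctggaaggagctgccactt
Csf3r: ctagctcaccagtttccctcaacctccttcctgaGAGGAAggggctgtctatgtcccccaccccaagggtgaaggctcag
Csf2ra: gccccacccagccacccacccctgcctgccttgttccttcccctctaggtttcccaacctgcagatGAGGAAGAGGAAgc
Csf2rb2 held 1 STAT match at -15, 1 GATA match at -38 and 1 ETS match at -167. Epor held 1 GATA match at -54, Csf3r 1 ETS match at -86, and Csf2ra 2 adjoining ETS matches at -14 and -8. Among the 250-base stretches of all 32851 promoters in the table, 7.0% held the STAT motif, 22.6% the GATA motif, 23.3% the ETS motif and 9.6% the C/EBP motif. Stretches of 250 bases were read for 6 of the 8 receptor genes, not for Csf2rb or Csf1r. With Csf2rb2 that made 7 stretches, of which Csf2rb2 alone held the STAT motif. Il3ra held a C/EBP match at -134, and Il6ra a GATA match at -245 and an ETS match at -70. The GC box (GGGCGG), left in lower case, was also searched and occurred in 32.7% of all promoters and in Epor, Csf2ra, Il3ra and Il6st. A match of letters is a description and does not show binding.

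Array medians lay between 5.51 and 5.68, and pairwise correlations over all probe sets between 0.898 and 0.968. Of the Jak2VF/+ EZH2-/- arrays, replicates 1 and 2 carried Y-linked signal (means of 6.66 and 6.81) and low Xist (4.86 and 4.56). The remaining 7 arrays had Y-linked means of 3.64 to 4.08 and Xist of 10.84 to 11.31, so sex is unbalanced in that group, and the beta chain differences that involve this group are given with and without both arrays. Stem cell markers averaged 7.49 to 7.69 in Jak2VF/+ EZH2-/-, 7.46 to 7.53 in Jak2VF/+ and 7.74 to 7.75 in WT (10 of 12 measured). The sort excluded cells with CD34 protein, yet Cd34 RNA signal was 9.91 to 10.68 over all arrays. Jak2 averaged 7.83 ± 0.15 in Jak2VF/+ EZH2-/-, 8.29 ± 0.21 in Jak2VF/+ and 8.03 ± 0.11 in WT, and Ezh2 averaged 8.32 ± 0.21, 8.91 ± 0.16 and 8.66 ± 0.17 in the same order of groups (SD, n = 3 each). Probe positions were not used here, so the Ezh2 signal does not check the deletion, nor does Jak2 signal check the mutant allele.

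Epor (probe set 17524847) encodes the erythropoietin receptor, which drives red cell formation through Jak2. Its signal was 6.94, 7.08 and 6.79 in Jak2VF/+ EZH2-/-, 6.16, 6.89 and 6.79 in Jak2VF/+, and 6.14, 7.0 and 6.63 in WT. The groups overlapped, and replicate 1 was the lowest array in both Jak2VF/+ and WT. The difference between Jak2VF/+ and WT was 0.03 with a 95% interval of -0.53 to 0.58. Jak2VF/+ EZH2-/- differed from Jak2VF/+ by 0.32 (-0.23 to 0.87) and from WT by 0.35 (-0.20 to 0.90), with adjusted p = 0.84 and 0.715 in limma. All 3 intervals hold values on both sides of 0. Single arrays moved both values, to 0.09 against Jak2VF/+ without Jak2VF/+ replicate 1, and against WT to 0.12 without WT replicate 1 or 0.55 without WT replicate 2. Measured erythroid markers (10 of 16 listed) averaged 7.70 to 7.92 in Jak2VF/+ EZH2-/-, 7.05 to 7.77 in Jak2VF/+ and 7.13 to 7.71 in WT, and their part in the Epor values was not tested.

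Csf3r (17418485) encodes the receptor for granulocyte colony-stimulating factor, which drives neutrophil production. Its signal was 7.86, 7.94 and 8.04 in Jak2VF/+ EZH2-/-, 7.92, 8.19 and 8.33 in Jak2VF/+, and 7.22, 8.13 and 7.95 in WT. The 3 groups overlapped, with WT replicate 1 far below the other arrays. Jak2VF/+ lay 0.38 above WT (95% interval -0.12 to 0.88, adjusted p = 0.924 in limma), the second largest difference among the 8 genes in that comparison. Without WT replicate 1 this difference was 0.11. Jak2VF/+ EZH2-/- differed from Jak2VF/+ by -0.20 (-0.70 to 0.30) and from WT by 0.18 (-0.32 to 0.68), and the last value turned to -0.09 without WT replicate 1.

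For the alpha chains that pair with the shared beta chain, the genotypes overlapped. Csf2ra (17366170), the specific chain for granulocyte-macrophage colony-stimulating factor, had the smallest range over the 9 arrays, at 0.37. It read 6.67, 6.68 and 6.76 in Jak2VF/+ EZH2-/-, 6.66, 6.62 and 6.75 in Jak2VF/+, and 6.73, 6.67 and 6.39 in WT. Its differences were 0.08 for Jak2VF/+ minus WT, 0.03 for Jak2VF/+ EZH2-/- minus Jak2VF/+ and 0.11 for Jak2VF/+ EZH2-/- minus WT. Their 95% intervals all lay within -0.26 and 0.39, so changes beyond that size were outside the intervals for this probe set. Il3ra (17297211), the specific chain for interleukin-3, varied more within groups. It read 7.02, 6.81 and 7.41 in Jak2VF/+ EZH2-/-, 6.61, 6.94 and 7.64 in Jak2VF/+, and 6.69, 7.02 and 6.85 in WT. Jak2VF/+ held both the lowest and the highest of the 9 arrays. The differences were 0.21, 0.02 and 0.23 in the same order of comparisons, each with an interval across 0.

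Csf2rb (17312716) encodes the beta chain shared by the receptors for interleukin-3, interleukin-5 and granulocyte-macrophage colony-stimulating factor. Its signal was 6.63, 6.01 and 6.47 in Jak2VF/+ EZH2-/-, 7.53, 6.89 and 7.07 in Jak2VF/+, and 6.59, 6.72 and 6.64 in WT. All 3 Jak2VF/+ arrays lay above the other 6, while Jak2VF/+ EZH2-/- and WT overlapped. Group means were 6.37 ± 0.32, 7.16 ± 0.33 and 6.65 ± 0.06 in that order (SD, n = 3). Jak2VF/+ exceeded WT by 0.51 (SE 0.20), which is 1.43-fold (95% interval 0.06 to 0.96, unadjusted p = 0.0291, adjusted p = 0.924 in limma). Jak2VF/+ EZH2-/- lay below Jak2VF/+, with a difference of -0.79 (SE 0.20), which is 0.577-fold (95% interval -1.24 to -0.35, unadjusted p = 0.00278, adjusted p = 0.383). Against WT it differed by -0.28 (95% interval -0.73 to 0.17, adjusted p = 0.715), and by -0.10 without Jak2VF/+ EZH2-/- replicate 2 or -0.41 without its replicate 1. The first 2 comparisons share the Jak2VF/+ arrays, so 1 high group appears in both. Without both arrays with Y-linked signal, the remaining Jak2VF/+ EZH2-/- array gave a difference of -0.69 from Jak2VF/+ and of -0.18 from WT. Without Jak2VF/+ replicate 1, the array with the highest Csf2rb signal, Jak2VF/+ minus WT was 0.33, and over all alternatives its adjusted p lay between 0.454 and 1.

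Csf2rb2 (17318950) is the beta chain gene specific to interleukin-3 in mice and the neighbour of Csf2rb in the gene order. Its signal was 5.52, 6.51 and 5.76 in Jak2VF/+ EZH2-/-, 7.13, 7.02 and 8.0 in Jak2VF/+, and 6.02, 6.57 and 5.57 in WT. Again the 3 Jak2VF/+ arrays lay above the other 6. Jak2VF/+ exceeded WT by 1.33 (SE 0.35), which is 2.52-fold (95% interval 0.56 to 2.10, unadjusted p = 0.00333, adjusted p = 0.924 in limma). Jak2VF/+ EZH2-/- lay below Jak2VF/+, with a difference of -1.46 (SE 0.35), which is 0.364-fold (95% interval -2.23 to -0.68, unadjusted p = 0.00187, adjusted p = 0.342). The difference between Jak2VF/+ EZH2-/- and WT was -0.13 (-0.90 to 0.65). Without both arrays with Y-linked signal, Jak2VF/+ EZH2-/- minus Jak2VF/+ was -1.63 and Jak2VF/+ EZH2-/- minus WT was -0.30. Csf2rb and Csf2rb2 are similar in sequence, the probe sequences were not used here, and how far each probe set reads the other gene was not tested. Deviations of the pair from their group means correlated at -0.409 over the 9 arrays, a description with no test, and the highest Jak2VF/+ array was replicate 1 for Csf2rb and replicate 3 for Csf2rb2.

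**Figure D1:**
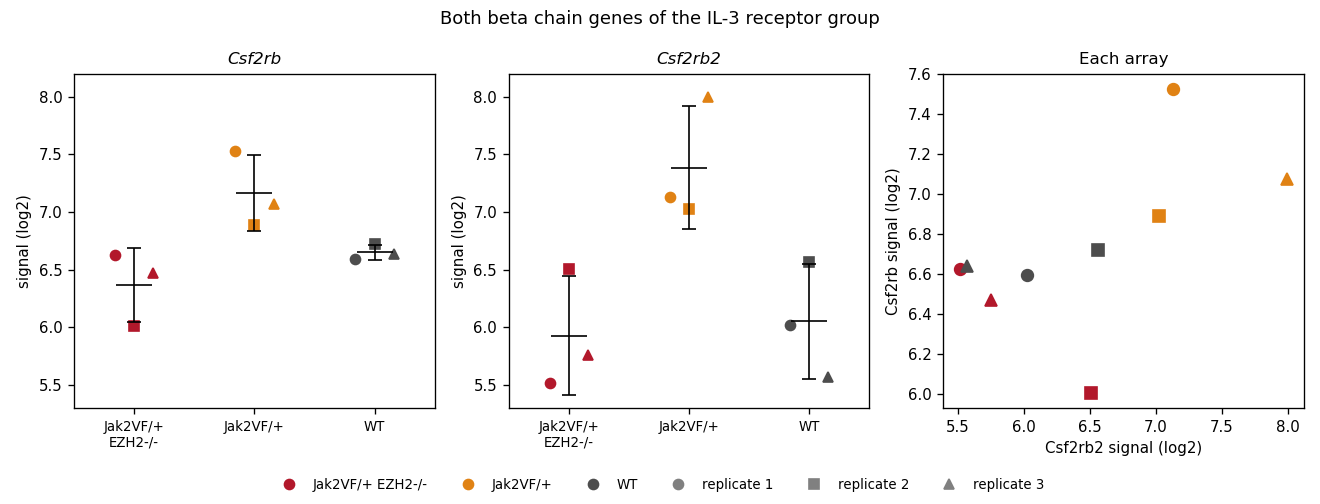
Log2 signal of Csf2rb (left) and Csf2rb2 (middle) in each array by genotype, with replicate number as symbol, the mean as a line and the SD as error bars, n = 3. The right panel sets the signal of the pair against each other in each array. The 3 Jak2VF/+ arrays lie above the other 6 for both genes, at 6.89 to 7.53 for Csf2rb and 7.02 to 8.0 for Csf2rb2.

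In sorted cells measured in bulk, a change in the share of cells of a type and a change in RNA per cell cannot be told apart. Beside the beta chain values, megakaryocyte markers (9 of 12 measured) averaged 6.98 to 7.40 in Jak2VF/+ EZH2-/-, 7.70 to 8.25 in Jak2VF/+ and 7.27 to 7.59 in WT, the same order of groups. Mast cell and basophil markers, all 10 measured, averaged 5.91 to 6.34 in Jak2VF/+ EZH2-/-, 5.44 to 5.98 in Jak2VF/+ and 4.94 to 5.19 in WT. In Jak2VF/+ against WT, 8 of these 10 were higher and 2 lower, where 55.8% of all genes were higher. In Jak2VF/+ EZH2-/- against Jak2VF/+, 7 were higher and 3 lower, where 41.8% of all genes were higher. The 3 lower genes, Fcer1a, Ms4a2 and Hdc, had their highest mean in Jak2VF/+, as both beta chains did. Monocyte and macrophage markers (all 12 measured) averaged 6.08 to 6.49 in Jak2VF/+ EZH2-/-, 6.49 to 6.84 in Jak2VF/+ and 5.92 to 6.36 in WT. Neutrophil markers (all 12 measured) averaged 5.90 to 6.92 in Jak2VF/+ EZH2-/-, 5.91 to 6.30 in Jak2VF/+ and 5.6 to 6.13 in WT. The part of these markers in the receptor values was not tested.

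Il6ra (17407138) encodes the alpha chain that binds interleukin-6. It read 6.47, 6.00 and 6.46 in Jak2VF/+ EZH2-/-, 6.13, 6.74 and 7.11 in Jak2VF/+, and 6.47, 6.71 and 6.41 in WT. The groups overlapped, and Jak2VF/+ spread over nearly the whole range. Jak2VF/+ EZH2-/- differed from Jak2VF/+ by -0.35 (95% interval -0.89 to 0.19, adjusted p = 0.814 in limma), and Jak2VF/+ from WT by 0.13 (-0.41 to 0.67). Without Jak2VF/+ replicate 3, the array with the highest Il6ra signal, these values were -0.12 and -0.10, and without Jak2VF/+ replicate 1 the first was -0.61.

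Il6st (17289889) encodes gp130. It read 7.27, 6.99 and 7.05 in Jak2VF/+ EZH2-/-, 7.0, 7.56 and 7.29 in Jak2VF/+, and 7.49, 7.65 and 7.09 in WT. It was the only 1 of the 8 genes whose group means were lowest in Jak2VF/+ EZH2-/-, higher in Jak2VF/+ and highest in WT, but the arrays overlapped throughout. Jak2VF/+ EZH2-/- differed from WT by -0.30 (95% interval -0.72 to 0.12, adjusted p = 0.684 in limma), the smallest p of the 8 genes in that comparison. The differences were -0.18 for Jak2VF/+ EZH2-/- minus Jak2VF/+ and -0.13 for Jak2VF/+ minus WT.

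Csf1r (17351053) encodes the macrophage colony-stimulating factor receptor, a marker of monocytes and their precursors. Its mean signal lay below the median over all genes of 5.762, unlike that of the other 7. It read 5.50, 5.54 and 5.44 in Jak2VF/+ EZH2-/-, 5.47, 5.54 and 6.00 in Jak2VF/+, and 5.54 in all 3 WT arrays. The value 5.5431 stood in 5 of the 9 arrays, so the WT standard deviation of 0 comes from the deposited numbers and does not measure the spread between mice. Identical values in 5 or more arrays occurred for 3.23% of all genes, and 5 of the 8 receptor genes had at least 1 value shared by 2 or more arrays, against 46.5% of all genes. Csf1r differed by 0.13 between Jak2VF/+ and WT, and by -0.04 without Jak2VF/+ replicate 3, the 1 array that stood above the rest.

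**Figure D2:**
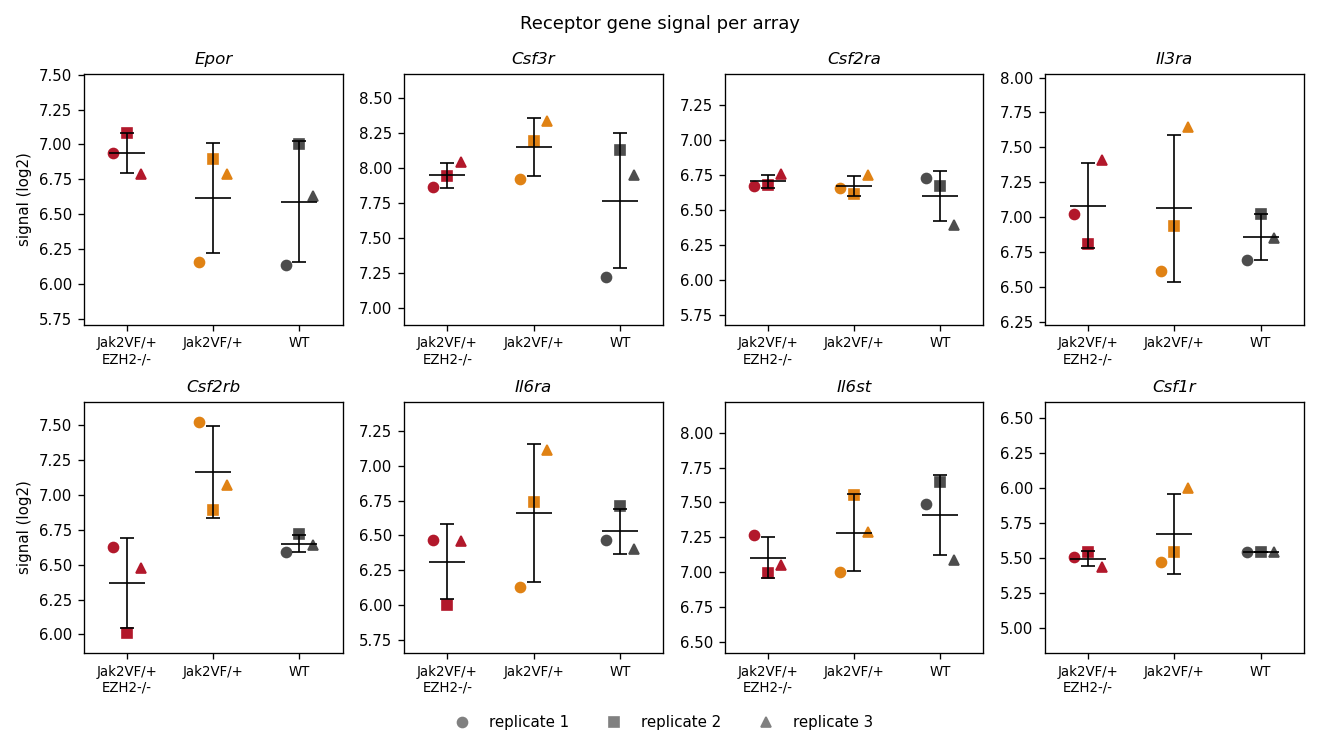
Log2 signal of the 8 receptor genes in each array, by genotype, with replicate number as symbol, the mean as a line and the SD as error bars, n = 3. Each panel spans the same 1.8 log2 units. The Jak2VF/+ arrays of Csf2rb, at 6.89 to 7.53, lie above the other groups, and in the other 7 panels the groups overlap.

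Counted together, 0 of the 8 receptor genes passed in any comparison with limma, and likewise with ordinary least squares. In the moderated F test of any difference among the 3 groups 0 of 8 passed too, with adjusted p = 0.562 for Csf2rb, against 0.0271% of all genes. At an unadjusted p under 0.05, 1 of 8 (12.5%) differed between Jak2VF/+ and WT, where 4.66% of all genes did. In Jak2VF/+ EZH2-/- against Jak2VF/+ it was also 1 of 8, against 6.89% of all genes, and in Jak2VF/+ EZH2-/- against WT 0 of 8, against 8.6%. The 1 gene was Csf2rb both times. With ordinary least squares the counts at this unadjusted level were 0, 1 and 0. The adjusted threshold was passed by 0% of all genes in Jak2VF/+ against WT, 0.0451% in Jak2VF/+ EZH2-/- against Jak2VF/+ and 0.0225% in Jak2VF/+ EZH2-/- against WT. Groups did not overlap for 1, 1 and 0 of the 8 genes in these comparisons, against 6.11%, 11.1% and 12.9% of all genes. With 8 genes, 1 is the smallest count above 0, so the shares do not set the receptors apart from the background.

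In Jak2VF/+ against WT, 7 of the 8 genes had a positive difference, as did 55.8% of all genes, with a median of 0.13 beside 0.03 over all genes. In Jak2VF/+ EZH2-/- against Jak2VF/+, 3 of 8 were positive, as were 41.8% of all genes, with a median of -0.18 beside -0.04. Against WT, Jak2VF/+ EZH2-/- had 4 of 8 positive differences, where 46.5% of all genes had one, and a median of 0.03 beside -0.02. Jak2VF/+ replicate 3 lay above the 9-array mean for all 8 genes and was the highest array for 4 of them (Csf3r, Il3ra, Csf1r and Il6ra). Jak2VF/+ replicate 1 lay above that mean for 1 gene alone, Csf2rb. Without replicate 3 the Jak2VF/+ minus WT differences of Epor, Il3ra, Csf1r and Il6ra turned negative, at -0.06, -0.08, -0.04 and -0.10. Over all 24 differences of the 8 genes, leaving out 1 array moved 23 by over 1.5 times, and the exception was Csf2rb in Jak2VF/+ EZH2-/- against Jak2VF/+, at -0.93 to -0.61. The monocyte and macrophage marker mean was also highest in Jak2VF/+ replicate 3, at 6.84, and its part in these values was not tested.

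**Figure D3:**
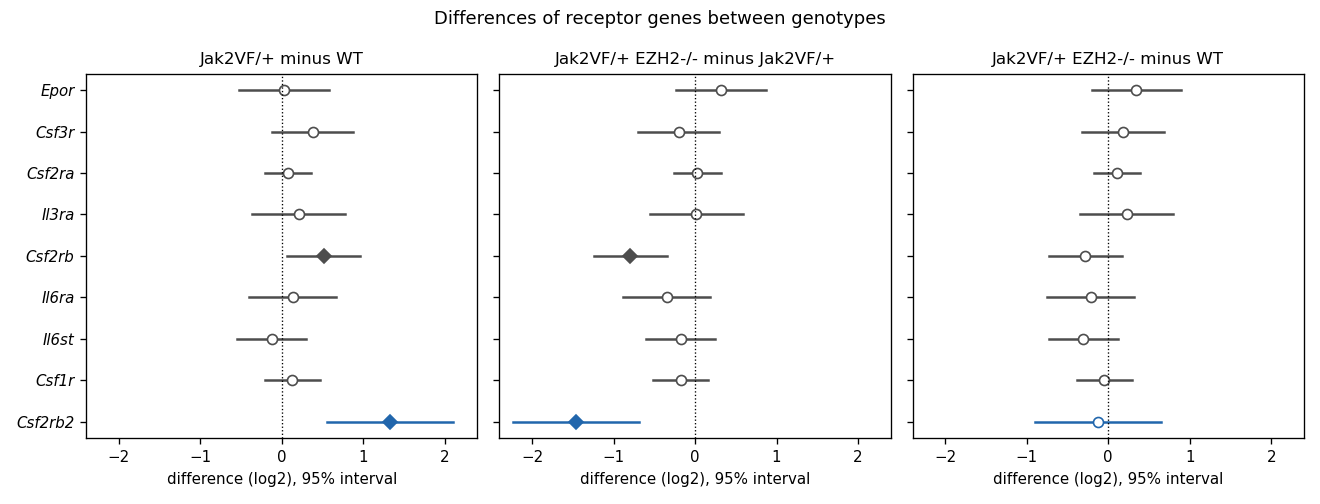
Differences in log2 signal with 95% intervals from the limma fit, for the 8 receptor genes (grey) and Csf2rb2 (blue), in 3 comparisons. Filled diamonds mark genes whose arrays did not overlap between the groups and open circles the rest. Csf2rb and Csf2rb2 have intervals clear of 0 in the first 2 panels, and 0 genes do in the third.

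The wider cytokine pathway was read from lists of 95 further genes, of which 85 were measured. They cover other receptors of classes I and II, receptor tyrosine kinases, ligands, Janus kinases and STATs, feedback inhibitors, and transcription factors known to drive receptor genes. None passed over all genes with limma in the 3 comparisons. At an unadjusted p under 0.05, Jak2VF/+ against WT had 10 higher and 2 lower (14.1% of the 85, beside 4.66% of all genes). Jak2VF/+ EZH2-/- against Jak2VF/+ had 6 higher and 5 lower (12.9%, beside 6.89%). Jak2VF/+ EZH2-/- against WT had 7 higher and 1 lower (9.4%, beside 8.6%). The lists were chosen with earlier results of these data known. A share above that of all genes can come from this choice and is not a result about the pathway.

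Among the 22 measured class I receptors outside the 8, the median difference was 0.00 for Jak2VF/+ against WT, where Il4ra, the interleukin-4 receptor alpha chain, differed by 0.55 (adjusted p = 0.924 in limma). In Jak2VF/+ EZH2-/- against Jak2VF/+ the 2 smallest p of this list belonged to receptors of lymphoid cells. Il7r, the interleukin-7 receptor alpha chain needed for lymphoid development, read 6.05, 7.25 and 7.33 in Jak2VF/+ EZH2-/-, 5.57, 4.80 and 4.4 in Jak2VF/+, and 5.19, 5.57 and 5.04 in WT. Il2rb, the beta chain of the interleukin-2 and interleukin-15 receptors, read 5.88, 6.41 and 6.50 in Jak2VF/+ EZH2-/-, 5.28, 5.44 and 5.44 in Jak2VF/+, and 5.79, 5.42 and 5.39 in WT. For both genes all 3 Jak2VF/+ EZH2-/- arrays lay above the other 6, and both probe sets had a mean signal below the median over all genes. Against Jak2VF/+ they differed by 1.95 and 0.88 (adjusted p = 0.221 and 0.273 in limma), and against WT by 1.61 and 0.73 (adjusted p = 0.319 and 0.4). T and NK cell markers (8 of 9 measured) averaged 6.21 to 6.70 in Jak2VF/+ EZH2-/-, 5.80 to 6.11 in Jak2VF/+ and 5.81 to 5.86 in WT. These 8 did not move together. Against Jak2VF/+, 6 were higher in Jak2VF/+ EZH2-/-, where 41.8% of all genes were, and 2 were lower. Cd7 and Klrd1 averaged 7.55 and 6.77 in Jak2VF/+ EZH2-/- and 5.68 and 5.07 in Jak2VF/+. The 2 lower genes, Nkg7 and Thy1, averaged 9.11 and 6.43 in Jak2VF/+ EZH2-/- and 9.86 and 6.92 in Jak2VF/+. B cell markers (8 of 10 measured) averaged 5.08, 5.31 and 6.33 in Jak2VF/+ EZH2-/-, 5.10 to 5.3 in Jak2VF/+ and 5.18 to 5.38 in WT, so replicate 3 of Jak2VF/+ EZH2-/- stood above the other 8 arrays. The part of either list in the Il7r and Il2rb values was not tested.

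The 10 class II receptors bind interferons and the interleukin-10 family. In Jak2VF/+ against WT they had 9 positive differences (median 0.20), where 55.8% of all genes were positive (median 0.03). In Jak2VF/+ EZH2-/- against Jak2VF/+ they had 2 positive and 8 negative differences (median -0.23), where 41.8% of all genes were positive (median -0.04). Of the 10, 0 had an unadjusted p under 0.05 in limma in either comparison. The smallest p belonged to Ifngr2, a chain of the interferon gamma receptor (0.51), and Il10rb, a chain of the interleukin-10 receptor (0.45), in Jak2VF/+ against WT. In Jak2VF/+ EZH2-/- they belonged to Il22ra1 (-0.34) and Il20rb (-0.22) against Jak2VF/+, and to Ifnlr1 (-0.17) and Ifnar1 (0.17) against WT. The receptor tyrosine kinase genes Kit, Flt3 and Tek differed by 0.08, 0.23 and -0.15 in Jak2VF/+ against WT, by -0.08, 0.27 and -0.13 in Jak2VF/+ EZH2-/- against Jak2VF/+, and by 0.00, 0.50 and -0.28 in Jak2VF/+ EZH2-/- against WT. Flt3 encodes CD135, which the sort excluded, and read 7.73, 8.03 and 7.64 in Jak2VF/+ EZH2-/-, 7.10, 7.48 and 8.01 in Jak2VF/+, and 7.34, 7.635 and 6.91 in WT. The Jak2VF/+ EZH2-/- arrays lay just above all WT arrays (adjusted p = 0.614 in limma).

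Of 16 measured ligand genes, Ebi3 came closest to the threshold. It encodes the soluble subunit of interleukin-27 and interleukin-35, related to class I receptors. It read 8.47, 8.35 and 8.87 in Jak2VF/+ EZH2-/-, 7.18, 6.88 and 7.49 in Jak2VF/+, and 7.56, 7.56 and 7.05 in WT, so all 3 Jak2VF/+ EZH2-/- arrays lay above the rest. It differed by 1.38 from Jak2VF/+ (adjusted p = 0.0925 in limma) and by 1.18 from WT (adjusted p = 0.182). The first passed when the fit was limited to genes with a mean above the median (adjusted p = 0.033 in limma). A dimmer Ebi3 probe set (17346074) read 7.89, 8.63 and 8.01 in Jak2VF/+ EZH2-/-, and 7.30, 7.23 and 7.72 in Jak2VF/+. In WT it read 7.57, 7.72 and 7.25, so the Jak2VF/+ EZH2-/- arrays again lay above the rest, by less. Clcf1, a ligand of the interleukin-6 family that signals through gp130, was 0.69 above Jak2VF/+ (adjusted p = 0.43), and differed by -0.47 in Jak2VF/+ against WT. Osm, the ligand oncostatin M, differed by 0.55 in Jak2VF/+ against WT, and Il5 by -0.18 in Jak2VF/+ EZH2-/- against WT.

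Inside the cell, Stat5b, a STAT factor downstream of the erythropoietin and interleukin-3 receptors, read 7.51, 7.12 and 7.68 in Jak2VF/+ EZH2-/-, 8.0, 8.33 and 8.26 in Jak2VF/+, and 7.59, 8.34 and 7.58 in WT. The Jak2VF/+ EZH2-/- arrays lay below all Jak2VF/+ arrays, by -0.76 on average (adjusted p = 0.503 in limma). Cish, a feedback inhibitor induced by STAT5, read 7.91, 8.88 and 8.47 in Jak2VF/+ EZH2-/-, 6.61, 7.59 and 7.43 in Jak2VF/+, and 7.85, 7.46 and 7.17 in WT. It was thus highest where Stat5b and Csf2rb were lowest, by 1.21 over Jak2VF/+ (adjusted p = 0.39) and 0.93 over WT (adjusted p = 0.49). Of the other STAT genes, Stat3 differed by 0.38 in Jak2VF/+ against WT and Stat2 by 0.46 in Jak2VF/+ EZH2-/- against WT, where Stat5b differed by -0.40. Among the feedback inhibitors, Socs3 lay above WT by 0.29 in Jak2VF/+ and 0.23 in Jak2VF/+ EZH2-/-, and Socs7 differed by 0.35 in Jak2VF/+ against WT and by -0.40 in Jak2VF/+ EZH2-/- against Jak2VF/+. Among the 12 transcription factors, Irf8 directs monocyte and dendritic cell fate and is also on the monocyte marker list. It was 0.81 above WT in Jak2VF/+ and 0.98 above WT in Jak2VF/+ EZH2-/- (adjusted p = 0.924 and 0.253 in limma). A dimmer Irf8 probe set (17506279) read 6.07, 5.785 and 6.10 in Jak2VF/+ EZH2-/-, and 5.75, 5.66 and 5.95 in Jak2VF/+. In WT it read 5.76, 5.48 and 5.66, so Jak2VF/+ and WT overlapped there. Gata2, a stem and progenitor factor, was 0.47 above WT in Jak2VF/+, where Jak2VF/+ arrays read 8.25 to 8.75 and WT arrays 7.87 to 8.22. In Jak2VF/+ EZH2-/-, Klf1, an erythroid factor also on the erythroid marker list, differed by 0.90 from Jak2VF/+ and Cebpa, a myeloid factor, by -0.44, while Runx1, a regulator of blood stem cells, differed by 0.49 from WT (adjusted p = 0.683, 0.726 and 0.531 in limma).

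**Figure D4:**
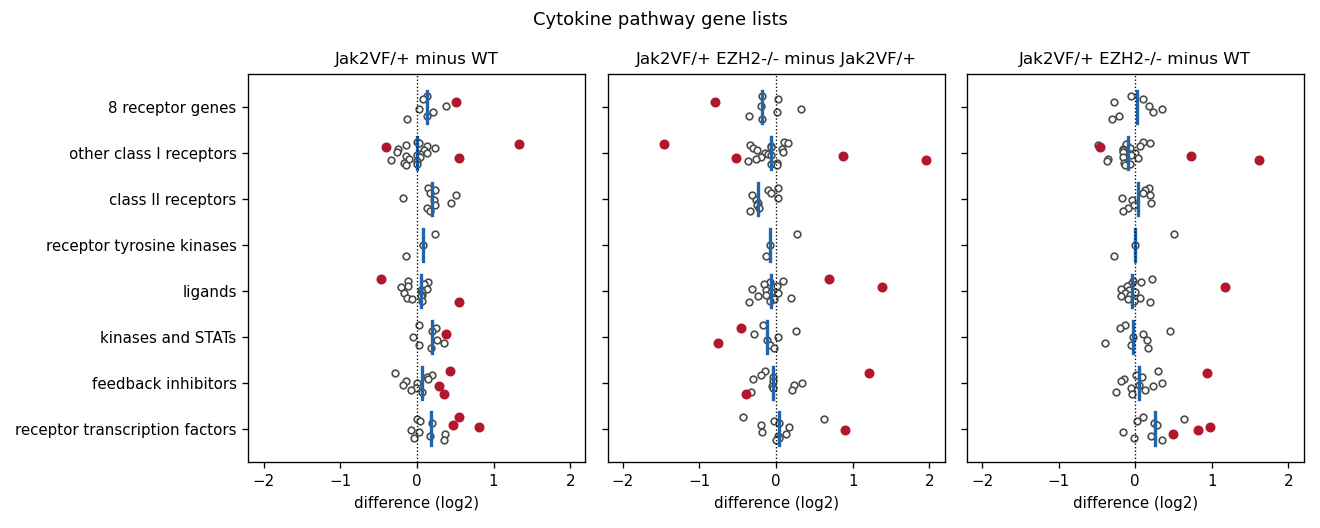
Difference in log2 signal of every measured gene of 8 lists in 3 comparisons. Filled red points have an unadjusted p under 0.05 in limma, open points do not, and blue bars mark each list's median. The point farthest right among the other class I receptors is Csf2rb2 at 1.33 in the first panel and Il7r at 1.95 in the second.

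The genes most like each receptor were taken as the 2 with the highest Pearson correlation over the 9 arrays, among 9865 named protein-coding genes with a mean above the median. They were Spcs1 and Polr1a for Epor (0.983 and 0.97), Plxnb2 and Zswim8 for Csf3r (0.979 and 0.973), and Tepp and Haao for Csf2rb (0.969 and 0.959). They were Unc5a and Zdhhc12 for Csf2ra (0.97 and 0.956), App and Amn1 for Il3ra (0.945 and 0.944), and Dlx3 and Iqsec2 for Csf1r (0.982 and 0.98). They were Dcaf17 and Eif4g3 for Il6ra (0.973 and 0.962) and E2f6 and Zfp182 for Il6st (0.915 and 0.909). Spearman correlations of the same pairs ranged from 0.55 (Dlx3 with Csf1r) to 0.971 (Eif4g3 with Il6ra). That of Tepp with Csf2rb was 0.75. With 9 arrays and so many candidates, correlations of this size describe these arrays only, and Csf1r had 1 array that stood above the rest.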

How the data were processed

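The authors deposited log2 probe set signals of 41345 probe sets on 9 arrays. The submitters' processing notes name Partek 6.6, and how background, scaling and probe summary were handled is not stated there. The labels' protocols give an input of 10 ng and amplification with the Ovation Pico WTA System V2. Names came from the platform's annotation (23521 with 1 symbol, 1814 with several and 16010 unnamed here), and the probe set with the highest mean was kept per gene. No further normalization was applied.

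All 22180 genes entered 1 limma fit (version 3.58.1, R 4.3.3, 6 residual degrees of freedom) with 3 contrasts, and p-values were adjusted over all genes by Benjamini-Hochberg, with a threshold of 0.05. The labels give no batch, and the number of arrays limits the precision. Simulated data took the gene means and moderated spreads of these arrays, with independent normal noise and shifts planted in Jak2VF/+ EZH2-/-. For Jak2VF/+ EZH2-/- against Jak2VF/+ over 22180 genes, the fit called 75% of the 100 genes shifted by 1 (log2). It called 99% of the 100 shifted by 2, and 12 of its 186 calls were unchanged genes. The share called depends on the number of genes shifted and on the noise, so it does not give the power in the real arrays.

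The members and lists were chosen with earlier results of these data known. Named were all 8 members, Jak2, Ezh2, per member the 2 most correlated genes, and from each pathway list the genes passing plus the 2 with the smallest p per comparison. Kit was named after its values were seen. Alternatives covered scaling, filters, variance models, a sex covariate and each array left out, and the fit without both Y-positive arrays was added after seeing the data.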

Additional observations from a re-analysis of the deposited data

How the results depend on the processing

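The count of 0 receptor genes past the threshold held under all 21 alternatives in each comparison, and so did 0 genes in all for Jak2VF/+ against WT. Of 477 recomputed differences of the 8 receptor genes, 235 equalled the reported estimate within 0.0002, most of them because the alternative changes only the error or the genes adjusted over. Of the 242 that moved, 227 had the reported direction and 15 reversed, and 0 crossed the threshold. The number of genes passing was unstable in the other tests. For Jak2VF/+ EZH2-/- against Jak2VF/+ it was 10, and became 0 with ordinary least squares, 0 with the 2 groups alone, 19 among genes with a mean above the median, 23 at adjusted p under 0.1, 0 without both Y-positive arrays (Jak2VF/+ EZH2-/- replicates 1 and 2) and 0 to 17 with single arrays left out. For Jak2VF/+ EZH2-/- against WT it was 5, and became 10 with an intensity trend, 0 with ordinary least squares, 8 with quantile normalization, 3 with median centring, 0 with the 2 groups alone, 14 with array weights, 3 with every probe set, 13 at 0.1, 0 without both Y-positive arrays and 0 to 14 with single arrays left out. For any difference among the 3 groups it was 6, and became 10 with the trend, 0 with ordinary least squares, 10 with quantile normalization, 15 among genes with a mean above the median, 16 at 0.1, 0 without both Y-positive arrays and 0 to 15 with single arrays left out. The cause was not tested. Of 892 recomputed differences of named pathway genes, 475 moved and 7 of these reversed, and 1 in all, Ebi3, crossed the threshold.

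Deviations of same-numbered Jak2VF/+ and WT arrays correlated at 0.207, 0.484 and -0.231, and those of unlike-numbered arrays at -0.502 to 0.333. So few correlations cannot show whether the replicate numbers pair the samples, and the main fit did not pair them. With the replicate number as a block the counts were 0, 0 and 0 in these 3 tests. The block cannot change a difference in this balanced design, and gave Csf2rb an adjusted p of 0.901 for Jak2VF/+ against WT and 0.358 for Jak2VF/+ EZH2-/- against Jak2VF/+.

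Small differences changed sign. With quantile normalization Epor in Jak2VF/+ against WT was -0.036 and Csf1r in Jak2VF/+ EZH2-/- against WT 0.011. Tek in Jak2VF/+ EZH2-/- against Jak2VF/+ was 0.003 with array weights, 0.0784 with a sex covariate and 0.0784 without both Y-positive arrays. With single arrays left out, Jak2VF/+ minus WT ranged from -0.20 to 0.25 for Epor, -0.0245 to 0.14 for Csf2ra, -0.08 to 0.44 for Il3ra, -0.0351 to 0.23 for Csf1r, -0.10 to 0.40 for Il6ra, -0.29 to 0.014 for Il6st, -0.0081 to 0.4473 for Flt3 and -0.3042 to 0.0521 for Tek. Jak2VF/+ EZH2-/- minus Jak2VF/+ ranged from -5e-04 to 0.0694 for Csf2ra, -0.2082 to 0.3068 for Il3ra and -0.3295 to 0.0853 for Tek. Jak2VF/+ EZH2-/- minus WT ranged from -0.0926 to 0.3623 for Csf3r and -0.416 to 0.1315 for Csf2rb2.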

Other observations

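The chromosomal neighbours of the beta chain genes are on none of the gene lists used above, and were looked up after the Csf2rb values were seen. In the gene order of the GRCm38.p6 table, Ncf4, which encodes a subunit of the phagocyte oxidase, lies on the far side of Csf2rb2, and Tex33 on the far side of Csf2rb. In Jak2VF/+ against WT, Ift27, Pvalb and Ncf4 on the Csf2rb2 side differed by 0.56, 0.06 and 0.07, and Tex33, Tst, Mpst and Kctd17 on the Csf2rb side by -0.10, 0.18, 0.22 and 0.10, beside 1.33 for Csf2rb2 and 0.51 for Csf2rb (adjusted p between 0.924 and 0.985 in limma for all 9 genes). In Jak2VF/+ EZH2-/- against Jak2VF/+, the 7 neighbours differed by 0.29, -0.21, -0.10, 0.14, 0.02, 0.07 and 0.06 in the same order, beside -1.46 and -0.79. Ift27, the third gene from Csf2rb2, differed by 0.85 in Jak2VF/+ EZH2-/- against WT (unadjusted p = 0.0157, adjusted p = 0.501 in limma), more than the other 8 genes in that comparison. Differences between these neighbours were not tested.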
